A study of Mus musculus with 4 samples.

Results

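The genes of the CD3 complex and of the first steps of T cell receptor signalling were followed across classes of CD4 T cells from the mouse small intestine. They were 9 of the 31053 gene IDs counted: Cd3d, Cd3e, Cd3g and Cd247, the co-receptor gene Cd4, the kinase genes Lck and Zap70, the scaffold gene Lat and the inhibitory receptor gene Cd5. The members were given by name, and all 9 genes passed the filter on low counts. The mice were wild-type C57Bl/6, and the tissue was the lamina propria, the layer on which the epithelium of the gut rests. No treatment, other genotype or time point was part of the study. Living CD45+ CD3+ CD4+ cells had been sorted, so that proteins encoded by some of these genes had selected the cells. The series held 4 droplet libraries of 1 group, made with 5′ chemistry. Nothing in the labels ties a library to a single mouse. The p-values therefore measure only how differences between gates varied over these libraries, with the level of each library taken out.

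As background, a T cell recognises antigen through the T cell receptor chains, which have almost no intracellular part of their own. The CD3 proteins and the zeta chain, which Cd247 encodes, carry the signalling motifs. The co-receptor CD4 binds MHC class II and brings the kinase LCK to the receptor. LCK phosphorylates those motifs, ZAP-70 docks there and phosphorylates the membrane scaffold LAT, and LAT gathers the proteins that raise calcium and activate Ras. CD5 dampens the signal, and its level on thymocytes is known to follow the strength of self recognition.

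Cells were assigned by first match to a gate defined by transcripts. A cell with at least 1 Foxp3 UMI (unique molecular identifier, 1 counted transcript) entered the Foxp3 gate, and the next gates asked for at least 1 UMI of Il17a, of Il5 or Il13, of Cd8a and of Ifng, then for at least 10 of Gzma. The 10864 cells that met none were called rest, and are the reference below. The Foxp3, Il17a, Cd8a, Ifng and Gzma gates held 1533, 580, 586, 6320 and 1547 of the 21501 cells analysed. The Il5 or Il13 gate held 71, with at least 20 in library 4 alone, and was not compared with any single gate. Median depth was 4475, 5199.5, 3734.5, 3960 and 3590 UMIs in the 5 tested gates and 3744 in rest. The Cd8a gate was uneven between libraries, with 91, 100, 88 and 307 cells in libraries 1 to 4. The libraries held 23918884 to 28783972 UMIs, and any 2 of them shared 34 to 51 cell barcodes, at most 0.901% of the smaller library.

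The labelled cell type was checked against its defining genes. The αβ receptor genes Trac, Trbc1 and Trbc2 summed to a mean of 723 to 786 CPM in the 6 gates with replicates (CPM, the UMIs of a gene per 1000000 UMIs of that gate and library). Trdc, the constant region of the δ chain, stayed at or below 5.15 CPM in every gate. The mast cell list summed to at most 0.499 CPM, and Ncr1 of natural killer cells was at 0 in all gates but rest. The 10 myeloid genes summed to between 7.18 and 191 CPM over the libraries of these 6 gates. Both ends were libraries of the Il17a gate, and the highest value in the other gates was 90.2 CPM, in the Ifng gate.

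Cd3d, Cd3e and Cd3g lie together on chromosome 9 (mm10), and the stretches before their starts are shown because Cd3e and Cd3g moved together below while Cd3d did not. Cd3g (44969572 to 44980431, minus strand) and Cd3d (44981786 to 44987339, plus strand) are transcribed away from each other from starts 1355 bp apart, and Cd3e (44998740 to 45009627, minus strand) has its RefSeq start 27825 bp from that of Cd3d. The other genes lie apart from these: Cd247 and Zap70 on chromosome 1 (165788681 to 165877277 and 36761798 to 36782818, both plus strand), Cd4 on chromosome 6 (124864692 to 124888221, minus strand) and Lck on chromosome 4 (129548344 to 129573641, minus strand). Lat is on chromosome 7 (126363824 to 126369570, minus strand) and Cd5 on chromosome 19 (10717116 to 10739002, minus strand). The sequences are RefSeq's (GRCm38.p6), 5′ to 3′ on the strand of the gene, and end at the base before its RefSeq start. For Cd3e that start lies inside the gene body given above, which comes from the GENCODE annotation, so the window overlaps the end of that gene body. Capitals mark the E-box CAGGTG, which reads CACCTG where it lies on the other strand, and the GC box GGGCGG, each searched on both strands.
Cd3d, chr9:44981536-44981785, plus strand: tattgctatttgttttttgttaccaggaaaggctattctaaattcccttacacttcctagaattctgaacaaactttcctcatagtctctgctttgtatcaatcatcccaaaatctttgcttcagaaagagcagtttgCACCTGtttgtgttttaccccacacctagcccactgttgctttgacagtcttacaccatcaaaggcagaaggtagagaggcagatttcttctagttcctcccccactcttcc
Cd3g, chr9:44980432-44980681, minus strand: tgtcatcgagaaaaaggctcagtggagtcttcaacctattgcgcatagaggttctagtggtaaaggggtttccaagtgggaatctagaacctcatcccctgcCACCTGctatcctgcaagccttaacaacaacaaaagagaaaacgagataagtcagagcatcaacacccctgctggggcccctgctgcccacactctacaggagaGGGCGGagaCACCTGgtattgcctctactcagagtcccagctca
Cd3e, chr9:45009612-45009861, minus strand: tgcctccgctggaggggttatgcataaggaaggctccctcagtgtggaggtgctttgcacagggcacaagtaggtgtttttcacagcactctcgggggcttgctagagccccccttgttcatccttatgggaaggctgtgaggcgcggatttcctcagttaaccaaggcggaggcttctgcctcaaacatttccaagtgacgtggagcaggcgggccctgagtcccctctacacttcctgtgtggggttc

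The E-box CAGGTG, read by E proteins, was found 112 bases before the start of Cd3d and 148 and 35 bases before that of Cd3g. None was found in the Cd3e window. The GC box stood 44 bases before the start of Cd3g. RefSeq promoter entries were found for 8 of the 9 genes, with 11 start sites in all, and for Cd4 none was matched. CAGGTG was present in 7 of the 11 windows, of 6 genes, against 17.2% of 32841 mouse windows of the same length. GGGCGG was present in 2 of the 11 windows and in 32.7% of all, and the RUNX core TGTGGT in 2 and 14.0%, once each in Lck and Zap70. TATAAA (in 12.4% of all windows), CCGGAAG (6.91%), TGATAA (7.94%) and CAGCTG (13.0%) were in none. These matches are descriptions of the letters and not binding sites. Over the gene bodies, exons of Cd3e share bases with the antisense gene Gm48719 and those of Cd247 with Pou2f1 on the other strand. Whether counting used strand is not given in the sources used here.

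Transcripts of all 9 genes were counted in every gate, and the differences between gates were of modest size. The ratio of the highest to the lowest gate mean was 1.13 for Cd247 and 1.57 for Lat, with the other 7 genes between these values. When the 7 gates were compared at once, 8 of the 9 genes differed (edgeR adjusted p under 0.05), and so did 46.7% of the 10646 genes tested. Lat (edgeR adjusted p = 1.5e-10), Cd3e (1.2e-09) and Cd3g (8.6e-08) had the smallest values, and Cd247 did not pass (edgeR adjusted p = 0.623).

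Most gates that were neighbours in the order of a gene's means could not be told apart by the ranges of their libraries. For Cd3e and Cd3g the order ran from the Cd8a and Gzma gates, which overlapped, across a gap to the Ifng gate and rest, with the Il17a and Foxp3 gates last and no further gap. For Cd3d it ran from the Foxp3 gate through Cd8a, Ifng, rest and Gzma without a gap, and then across one to the Il17a gate. For Lck it ran from Gzma through Cd8a and Ifng to rest, then across a gap to the Il17a and Foxp3 gates. For Lat the order was Gzma, Ifng, Il17a, Cd8a and rest, then a gap, and the Foxp3 gate. Cd4, with the Ifng gate first and the Il17a gate last, Zap70, with Gzma first and Cd8a last, and Cd5, with Il17a first and rest last, had no gap between neighbours.

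**Figure D1:**
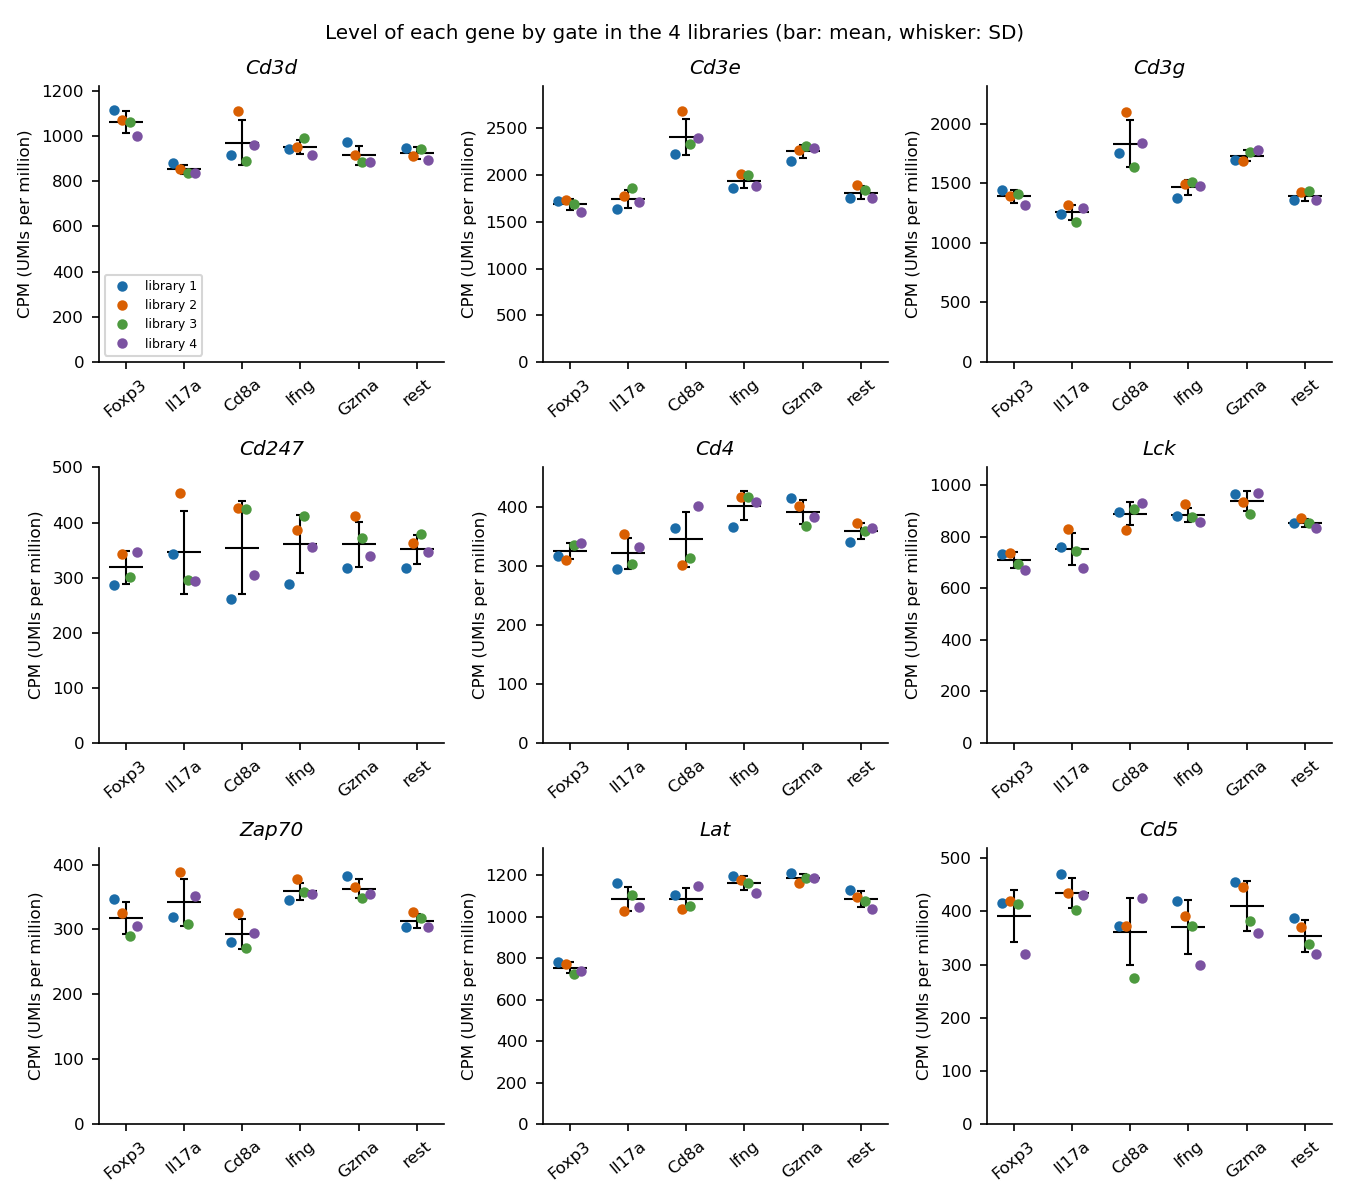
Level of each of the 9 genes (y axis, CPM, from 0) in the 6 gates with replicates (x axis). Each point is 1 library, the bar is the mean and the whisker the SD over 4 libraries. Lat sits between 726 and 784 CPM in the Foxp3 gate, below every value of the other 5 gates, and Cd3e and Cd3g are highest in the Cd8a and Gzma gates.

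Against rest, 3 of the 9 genes passed the test in the Foxp3 gate (1 higher, 2 lower), where 30.4% of all genes tested did (16.9% higher, 13.6% lower). In the Il17a gate 3 passed (2 higher, 1 lower), against 23.1% of all genes (13.0% higher, 10.0% lower). In both gates the share of the 9 genes, 3 of 9, was near the background. In the Cd8a gate 2 passed, both higher, against 13.0% of all genes (5.96% higher, 7.07% lower). In the Ifng gate 1 passed, higher, against 7.95% (3.75% higher, 4.20% lower), a share again near the background. In the Gzma gate 3 passed, all higher, against 12.0% (6.11% higher, 5.85% lower). The median log2 difference of the 9 genes in the Foxp3 gate was -0.08, beside -0.01 over all genes tested. The 5 comparisons share the rest cells as reference, so their values are given side by side and not as independent evidence.

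**Figure D2:**
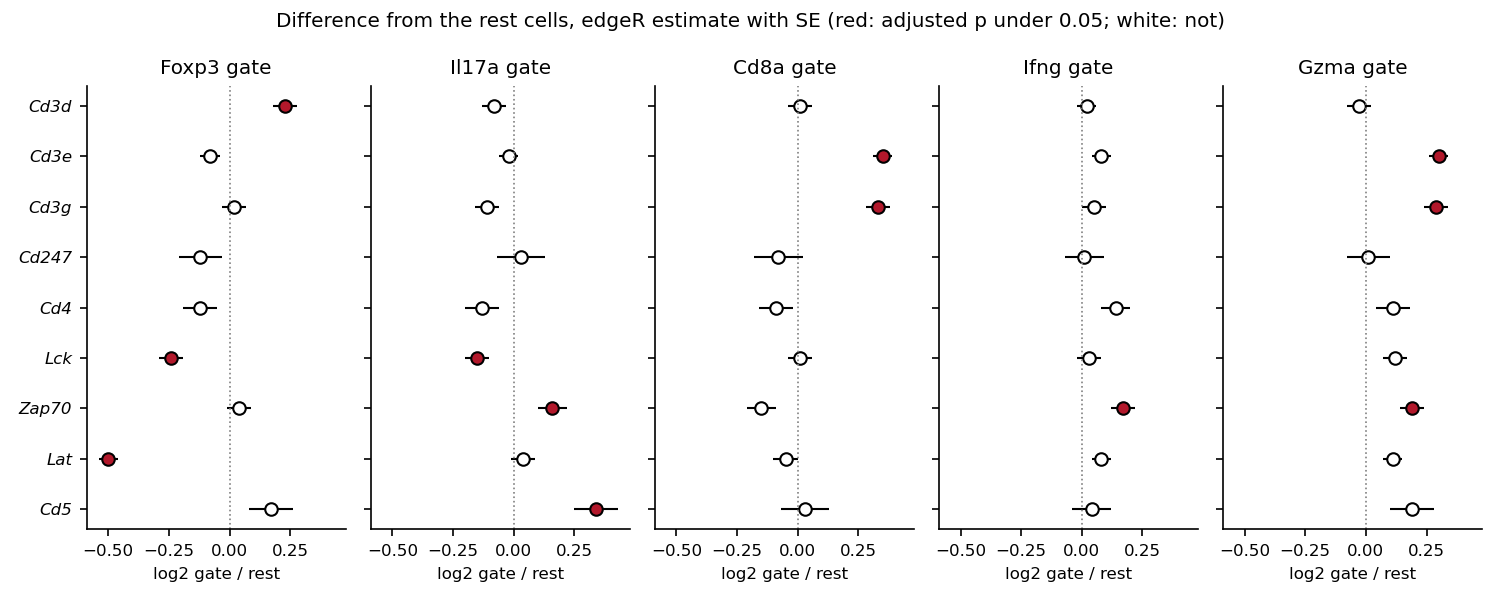
Log2 difference of each gene from the rest cells (x axis, edgeR estimate with its SE) in 5 gates. Red points passed the test at an adjusted p under 0.05 and white points did not. Lat stands at -0.50 in the Foxp3 gate, and Cd3e and Cd3g stand at 0.35 and 0.33 in the Cd8a gate and at 0.30 and 0.29 in the Gzma gate.

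Cd3e encodes the ε chain, which pairs with both the γ and the δ chain of CD3. In rest its level was 1751, 1897, 1844 and 1757 CPM in libraries 1 to 4. It was 2222, 2681, 2338 and 2396 CPM in the Cd8a gate and 2150, 2264, 2311 and 2292 CPM in the Gzma gate. In both gates every library lay above all 4 rest values. The log2 difference from rest was 0.35 ± 0.04 (SE) in the Cd8a gate (edgeR adjusted p = 2.8e-07) and 0.30 ± 0.04 in the Gzma gate (edgeR adjusted p = 3.4e-06). The Foxp3 gate held the lowest mean, 1688 ± 61.2 CPM (SD, n = 4), and did not differ from rest by the test (log2 -0.08 ± 0.04, edgeR adjusted p = 0.123). Its range, 1602 to 1737 CPM, still lay below every rest value, and 4 of 17 alternatives called the difference (log2 -0.18 to -0.02 over all 17).

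Cd3g, the γ chain of CD3, followed Cd3e. Its level was 1757, 2098, 1633 and 1838 CPM in the Cd8a gate and 1692, 1688, 1765 and 1780 CPM in the Gzma gate, against 1360, 1423, 1437 and 1360 CPM in rest. No value of either gate reached down to those of rest. The log2 differences were 0.33 ± 0.05 (edgeR adjusted p = 2.0e-05) and 0.29 ± 0.05 (edgeR adjusted p = 7.6e-05). Library 2 of the Cd8a gate, with 100 cells, gave the highest level of Cd3e and of Cd3g in any gate. The Il17a gate had the lowest mean of Cd3g, 1258 ± 63.2 CPM, and its log2 difference from rest was -0.11 ± 0.05 (edgeR adjusted p = 0.101).

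Other marker lists moved with the Gzma and Cd8a gates. The 6 cycling genes summed to 325 to 763 CPM in the Gzma gate and 398 to 712 CPM in the Cd8a gate, against 203 to 262 CPM in rest, with no overlap. The 5 γδ T cell genes summed to 139 to 276 CPM in the Gzma gate, against 86.3 to 133 CPM in rest. Their part in the result was not tested.

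Cd3d, the δ chain of CD3 and the neighbour of Cd3g, had another order. It was highest in the Foxp3 gate, with 1117, 1072, 1063 and 999 CPM, against 949, 912, 945 and 893 CPM in rest. The ranges of the 2 gates did not overlap, and the log2 difference was 0.23 ± 0.05 (edgeR adjusted p = 3.8e-04). In the Cd8a and Gzma gates, where Cd3e and Cd3g rose, Cd3d stood at 0.01 ± 0.05 and -0.03 ± 0.05 on the log2 scale relative to rest (edgeR adjusted p = 0.924 and 0.737). The lowest Cd3d mean, 853 ± 21.2 CPM (SD, n = 4), was that of the Il17a gate.

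Cd247, the zeta chain, was the flattest of the set. Its gate means ran from 319 ± 30.1 CPM in the Foxp3 gate to 361 ± 53.1 CPM in the Ifng gate, and no neighbours in that order were apart beyond their ranges. Libraries spread more than gates did: within the Cd8a gate the values were 261, 427, 425 and 304 CPM. None of the 8 comparisons of gates called Cd247, with adjusted p between 0.321 and 0.982 in edgeR. Over all cells of a library its level was 307, 375, 381 and 344 CPM, a coefficient of variation of 9.76%, and Cd5 had 10.0%, while the other 7 genes had 2.13% to 3.73%.

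Within the Cd8a gate, Cd3e and Cd3g were highest in the cells rich in Gzma, the gene of granzyme A. Of the 586 cells of that gate, 379 held at least 10 Gzma UMIs. In these the level of Cd3e was 2495, 2993, 2509 and 2530 CPM in libraries 1 to 4, against 1950, 2201, 2066 and 2071 CPM in the other 207 cells. For Cd3g the values were 1945, 2504, 1821 and 1974 CPM against 1569, 1472, 1334 and 1508 CPM. For both genes all 4 values of the Gzma-rich cells lay above all 4 of the others. Cd3d went the other way on average, 917 ± 159 CPM in the Gzma-rich cells against 1036 ± 72.5 CPM, with ranges that overlapped. This split was chosen after its values were seen.

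Tested in the same way against rest, the Gzma-rich cells of the Cd8a gate gave a log2 difference of 0.46 for Cd3e (edgeR adjusted p = 1.7e-08) and 0.48 for Cd3g (edgeR adjusted p = 8.4e-07). By the rule, rest held only cells with under 10 Gzma UMIs, so the 2 sides of this comparison differ in Gzma as well as in Cd8a. Without all cells that held at least 10 Gzma UMIs, the Cd8a gate, with 207 cells left, gave 0.11 for Cd3e (edgeR adjusted p = 0.16) and 0.01 for Cd3g (edgeR adjusted p = 0.98). Both fits were added after the data were seen, so their p-values are descriptive. In the 127 cells that met the Cd8a gate and no other, the differences were 0.05 for Cd3e (edgeR adjusted p = 0.77) and -0.05 for Cd3g (edgeR adjusted p = 0.83). Those 127 cells were lower than rest in Lck (log2 -0.40, edgeR adjusted p = 0.0015), Lat (-0.33, 0.021) and Cd4 (-0.41, 0.023). The whole Cd8a gate was not called for Lck (log2 0.01, edgeR adjusted p = 0.935), Lat (-0.05, 0.983) or Cd4 (-0.09, 0.539). Of 18 alternatives, only that of the 127 cells called Lat or Cd4. The summed level of the γ and δ chain genes moved with the gate, at 371 to 755 CPM in the Cd8a gate and 86.3 to 133 CPM in rest, with Trdc at 1.91 CPM and Trdv4 at 0. Cd8b1 spread from 65.7 to 577 CPM over the libraries of that gate. Their part in the result was not tested.

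The Ifng gate, which was 20.8% Gzma-rich, had the same direction of Cd3e and Cd3g when it was split. In its 1316 Gzma-rich cells Cd3e was 2060, 2239, 2290 and 2164 CPM, against 1809, 1949, 1920 and 1803 CPM in the other 5004, with no overlap. Cd3g was 1639 ± 64.4 CPM against 1415 ± 65.5 CPM, and Zap70 405 ± 13.5 CPM against 345 ± 15.2 CPM. In the Foxp3 gate the 2 parts lay closer together for Cd3e and Cd3g. Its 408 Gzma-rich cells had 1748 ± 58.3 CPM of Cd3e against 1661 ± 82.0 CPM, and 1358 ± 64.4 CPM of Cd3g against 1399 ± 109 CPM, and in both cases the libraries overlapped. These splits were not tested against each other, and the median depth of the Gzma-rich cells was 5475.5 UMIs in the Foxp3 gate against 4241 in the others.

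**Figure D3:**
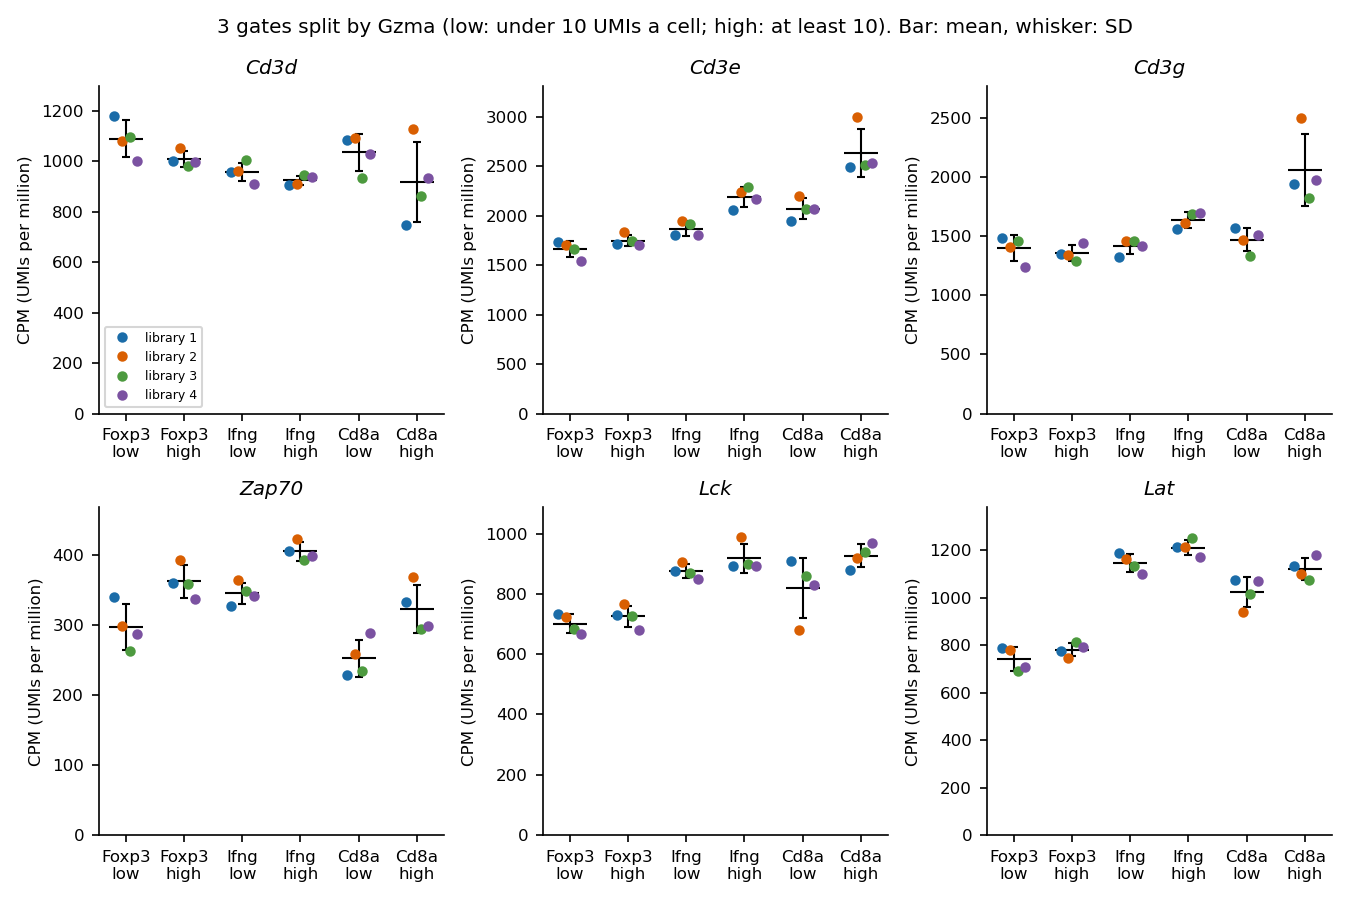
Level of 6 genes (y axis, CPM, from 0) in the Foxp3, Ifng and Cd8a gates, each split into cells with under 10 Gzma UMIs (low) and at least 10 (high). Each point is 1 library, the bar is the mean and the whisker the SD over 4 libraries. Cd3e stands at 2631 ± 241 CPM in the Gzma-rich cells of the Cd8a gate, and Lat is low in both parts of the Foxp3 gate.

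Cd4, the co-receptor gene, was highest in the Ifng gate, with 366, 416, 417 and 408 CPM. The Il17a gate had 295, 353, 303 and 332 CPM and the Foxp3 gate 316, 310, 335 and 338 CPM. Neither range reached that of the Ifng gate. The log2 difference from the Ifng gate was -0.27 ± 0.07 for the Il17a gate (edgeR adjusted p = 0.0068) and -0.26 ± 0.07 for the Foxp3 gate (edgeR adjusted p = 0.0030). The former was lost without library 3 (log2 -0.23, edgeR adjusted p = 0.068) and in cells thinned at random to 2000 UMIs before gating (-0.14, edgeR adjusted p = 0.43). No gate differed from rest in Cd4 by the test.

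The Cd8a gate, whose defining gene encodes the α chain of the other co-receptor, held Cd4 transcripts at 364, 301, 313 and 401 CPM, a range that takes in all 4 rest values. At 2000 UMIs a cell, 51.2% of its cells (95% exact interval 47.0 to 55.5) had a Cd4 UMI, against 50.4% of rest (49.4 to 51.3). These shares are pooled, and library 4 held 307 of the 586 cells of the gate. By library the share was 48.1 ± 6.58% (SD, n = 4) in the gate, from 40.9% to 56.8%, and 50.4 ± 1.41% in rest. Relative to the Ifng gate, the whole Cd8a gate was not called for Cd4 (log2 -0.23 ± 0.07, edgeR adjusted p = 0.0501), and the ranges overlapped. Of 17 alternatives 5 called it. In the 207 cells with few Gzma UMIs the level of Cd4 was 372, 271, 252 and 316 CPM. In 1 of these alternatives, with both gates without Gzma-rich cells, the log2 difference was -0.43 (edgeR adjusted p = 0.0031). That fit was added after the data were seen.

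Lck encodes the SRC-family kinase that starts the cascade. It was 731, 736, 695 and 672 CPM in the Foxp3 gate and 761, 830, 746 and 678 CPM in the Il17a gate, against 855, 871, 852 and 832 CPM in rest. Every value of both gates lay below every value of rest. In the Foxp3 gate the log2 difference was -0.24 ± 0.05 (edgeR adjusted p = 4.0e-04), and relative to the Ifng gate it was -0.27 ± 0.05 (edgeR adjusted p = 9.9e-05). In the Il17a gate it was -0.15 ± 0.05 (edgeR adjusted p = 0.042), a call that 9 of 17 alternatives ended, among them leaving out library 1, 3 or 4 (edgeR adjusted p = 0.13, 0.13 and 0.21). The Foxp3 call was lost in 1 of 17, against the mean of the other 6 gates (log2 -0.10, edgeR adjusted p = 0.095). The Gzma gate had the highest mean, 938 ± 37.5 CPM, with a log2 difference from rest of 0.12 ± 0.05 (edgeR adjusted p = 0.131).

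Zap70 encodes the kinase that binds the phosphorylated CD3 and zeta motifs. Its level was 345, 377, 358 and 354 CPM in the Ifng gate and 382, 365, 349 and 354 CPM in the Gzma gate, against 304, 327, 317 and 304 CPM in rest. Both gates were above rest without overlap, with log2 differences of 0.17 ± 0.05 (edgeR adjusted p = 0.027) and 0.19 ± 0.05 (edgeR adjusted p = 0.014). The first call was kept in 9 of 17 alternatives. It was lost when any 1 library was left out (edgeR adjusted p = 0.075 to 0.11), and also without Gzma-rich cells and in cells that met 1 gate only. The second call was kept in 12 of 16 alternatives. It was lost when library 1 was left out (edgeR adjusted p = 0.14) and in cells that met 1 gate only. The Il17a gate was called as well (log2 0.16 ± 0.06, edgeR adjusted p = 0.041), but 11 of 17 alternatives ended that call, leaving out library 1, 2 or 4 among them (edgeR adjusted p = 0.070, 0.16 and 0.18), and its 308 to 388 CPM overlapped rest.

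The Cd8a gate had the lowest Zap70 mean, 281, 325, 271 and 295 CPM in libraries 1 to 4. All 4 values lay below those of the Ifng gate. The log2 difference from the Ifng gate was -0.32 ± 0.06 (edgeR adjusted p = 6.1e-04), it was -0.48 without the Gzma-rich cells (edgeR adjusted p = 0.0021), and after thinning it was -0.31 and not called (edgeR adjusted p = 0.085). Relative to rest it was -0.15 ± 0.06 (edgeR adjusted p = 0.121). Relative to the Ifng gate, Cd3e and Cd3g were higher in the Cd8a gate, at 0.27 ± 0.04 (edgeR adjusted p = 1.3e-05) and 0.28 ± 0.05 (edgeR adjusted p = 1.9e-04). Both of these calls were lost without Gzma-rich cells (log2 0.09 and 0.00, edgeR adjusted p = 0.36 and 1.00) and in cells that met 1 gate only (0.03 and -0.05, edgeR adjusted p = 0.89 and 0.83). Together with Zap70 these were 3 of the 9 genes, against 10.2% of all genes tested in that comparison (4.60% higher, 5.57% lower).

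Lat, the scaffold on which the signal branches, had the largest difference from rest among the 9 genes. It was 784, 770, 726 and 738 CPM in the Foxp3 gate and 1130, 1097, 1075 and 1038 CPM in rest. The other 4 tested gates lay between 1030 and 1209 CPM, so that the Foxp3 gate stood apart in every library. Its log2 difference from rest was -0.50 ± 0.04, or 0.707 of the rest level (edgeR adjusted p = 1.8e-09), and from the Ifng gate -0.58 ± 0.04 (edgeR adjusted p = 1.2e-10). The former kept its call in all 17 alternatives, from -0.67 in cells that met 1 gate only to -0.41 against the mean of the other 6 gates.

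Markers of other cells also moved with the Foxp3 gate. The 6 B cell genes summed to 38.3 to 45.4 CPM there and 8.34 to 11.5 CPM in rest, with Cd79b giving 39.1 CPM and Ms4a1 and Pax5 at 0. The 6 epithelial genes summed to 76.1 to 102 CPM against 13.2 to 22.1 CPM, with Epcam giving 92.7 CPM and Vil1 and Krt19 at 0. The 5 plasma cell genes ran from 11.0 to 1909 CPM over its libraries and from 193 to 1045 CPM in rest. Without all droplets that held 5 or more UMIs of the myeloid, B cell or plasma cell genes, the log2 difference was -0.51 for Lat, -0.25 for Lck and 0.22 for Cd3d, each still called.

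Cd5 encodes a surface receptor that recruits inhibitory enzymes to the receptor complex. It was 471, 435, 402 and 430 CPM in the Il17a gate and 387, 370, 339 and 319 CPM in rest. All 4 Il17a values lay above all rest values, with a log2 difference of 0.34 ± 0.09 (edgeR adjusted p = 0.0084). Relative to the Ifng gate, which had 419, 391, 373 and 299 CPM, it was 0.30 ± 0.09 (edgeR adjusted p = 0.020), and those ranges overlapped. Leaving out library 1, which held 225 of the 580 Il17a cells, took both calls away (edgeR adjusted p = 0.063 and 0.086) with log2 differences of 0.34 and 0.31. In cells thinned to 2000 UMIs, given that the Il17a gate was the deepest tested, the difference from rest was 0.48 (edgeR adjusted p = 5.7e-04). The 6 genes of the cycling list summed to 853 ± 279 CPM in the Il17a gate and 234 ± 29.4 CPM in rest. The 5 stromal or endothelial genes summed to 54.9 to 84.9 CPM against 42.2 to 43.5 CPM, from Pecam1 alone in the Il17a gate. The 10 myeloid genes ran from 7.18 to 191 CPM over the Il17a libraries and from 25.1 to 48.2 CPM in rest. The part of these lists in the result was not tested. In the Foxp3 gate Cd5 was 415, 420, 413 and 319 CPM, with library 4 far below the others, and the difference from rest was not called (log2 0.17 ± 0.09, edgeR adjusted p = 0.142). Without library 4 it was called (log2 0.21, edgeR adjusted p = 0.0077).

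Gates were also compared with the Ifng gate in place of rest. The Foxp3 gate against the Ifng gate had 5 of the 9 genes called, 1 higher and 4 lower, where 29.6% of all genes were (16.5% higher, 13.1% lower). Lat, Lck, Cd4 and Cd3e (log2 -0.15 ± 0.04, edgeR adjusted p = 0.0021) were lower and Cd3d was higher (0.21 ± 0.05, edgeR adjusted p = 9.3e-04), though Cd3e was not called in cells that met 1 gate only (edgeR adjusted p = 0.067). The Il17a gate against the Ifng gate had 4 called, where 23.1% of all genes were (13.0% higher, 10.1% lower). Cd5 was higher, and Cd4, Lck (log2 -0.18 ± 0.05, edgeR adjusted p = 0.014) and Cd3g (-0.16 ± 0.05, edgeR adjusted p = 0.017) were lower. The call of Lck was lost without library 1, 3 or 4 (edgeR adjusted p = 0.057, 0.065 and 0.076) and that of Cd3g without library 3 or 4 (0.12 and 0.058). After thinning to 2000 UMIs the difference of Cd5 was called and those of Cd4, Lck and Cd3g were not.

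In the 71 cells of the Il5 or Il13 gate, 43 of them from library 4, only pooled levels with exact Poisson intervals can be given, which cover counting error. Lat was 738 CPM (660 to 823), below 1086 CPM in the pooled rest cells, and Lck 526 CPM (461 to 599) against 853 CPM. Cd5 was 230 CPM (187 to 280) against 355 CPM, while Cd3g was 1684 CPM (1565 to 1810) against 1394 CPM. By library Cd3g was 1579, 1256, 1622 and 1815 CPM, so that library 2 lay below all 4 rest values and library 4 gave 525 of the 739 UMIs. The libraries were uneven for other genes too: Lat was 1241, 727, 1034 and 653 CPM and Cd5 451, 304, 232 and 197 CPM in libraries 1 to 4, from 3, 13, 12 and 43 cells.

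Shares of cells with a UMI were compared at 1 depth. All cells with enough depth were reduced at random to 2000 UMIs, and the 749 others were left out, 1.89% of the Foxp3 gate and 4.31% of rest. A Lat UMI was then found in 72.1% of cells of the Foxp3 gate (95% exact interval 69.8 to 74.4) and in 87.2% of rest (86.5 to 87.8), and without thinning in 91.7% and 96.2%. A Cd5 UMI was found in 55.5% of the Il17a gate (51.3 to 59.6) and 42.4% of rest (41.5 to 43.4), and a Cd3d UMI in 87.6% of the Foxp3 gate and 82.0% of rest. At least 1 UMI of Cd3d, Cd3e, Cd3g or Cd247 was present in at least 98.9% of the cells of each gate.

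The background for these shares was high. Among 124 thinned droplets with 5 or more myeloid UMIs, Lat was found in 69.4% (60.4 to 77.3) and Lck in 74.2%, close to the 72.1% and 73.1% of the Foxp3 gate, and among 25 B cell droplets in 48.0% and 36.0%. Those droplets had passed the CD3 and CD4 sort, had median depths of 6174 and 15094 UMIs before thinning, and held a Trac, Trbc1 or Trbc2 UMI in 82.2% and 57.7% of cases, against 89.7% of all cells. Whether they hold a T cell as well cannot be told apart here from free RNA. No difference is therefore read from a share alone. For Cd4, Zap70 and Cd247 the intervals of all gates overlapped that of the myeloid droplets. For Lck (65.6 to 81.6 in those droplets) every gate but Gzma did. Among the gates with replicates, so did the Foxp3 gate for Lat and the Il17a gate for Cd3d and Cd3g.

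**Figure D4:**
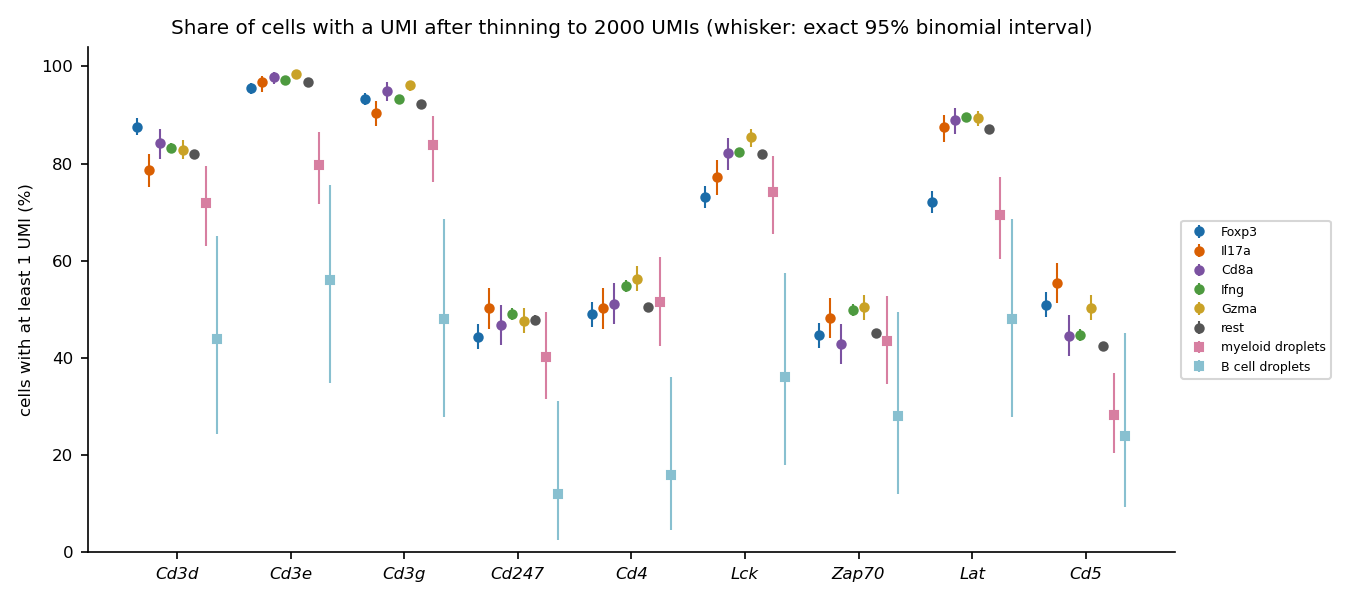
Share of cells with at least 1 UMI of each gene (y axis, percent) after thinning to 2000 UMIs, by gate, with droplets that hold myeloid or B cell genes as squares. Points are pooled over 4 libraries and whiskers are exact 95% binomial intervals, which cover counting error only. Lat falls to 72.1% in the Foxp3 gate, and among the 8 groups plotted, which leave out the Il5 or Il13 gate, the B cell droplets are lowest for every gene.

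The other genes of the pathway were taken in 6 lists, 73 genes in all, each tested in the same fit. In the Foxp3 gate against rest, 11 of 15 adaptor genes passed, 3 higher and 8 lower, with a median log2 of -0.22. Over all genes tested, 30.4% passed there (16.9% higher, 13.6% lower), with a median of -0.01. Themis, an adaptor of thymocyte signalling, was 41.5 ± 12.6 CPM against 112 ± 8.26 CPM in rest (log2 -1.43 ± 0.11, edgeR adjusted p = 1.9e-10). Grap2, which links LAT to SLP-76, was at -0.99 ± 0.08 (edgeR adjusted p = 6.2e-10), and Trat1, a transmembrane adaptor that joins the CD3 complex, at -1.40 ± 0.12 (edgeR adjusted p = 1.0e-09). The other 5 lower adaptors stood between -0.90 and -0.16.

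Of the 14 kinases and effectors, 2 were higher and 5 lower in the Foxp3 gate. Txk, a TEC-family kinase, was 53.0 ± 7.25 CPM against 99.7 ± 8.69 CPM (log2 -0.89 ± 0.10, edgeR adjusted p = 1.2e-07). Unc119, an adaptor that activates LCK and FYN, was higher at 0.58 ± 0.08 (edgeR adjusted p = 1.1e-06). The restrainers split 4 higher and 3 lower of 15. Ubash3b, the gene of the phosphatase STS-1, rose from 31.4 ± 2.19 CPM in rest to 74.9 ± 10.1 CPM (log2 1.28 ± 0.09, edgeR adjusted p = 1.4e-11). Ptpn22, a phosphatase that acts on LCK and ZAP-70, was lower at -0.74 ± 0.07 (edgeR adjusted p = 9.5e-09), and so was Pag1, the membrane anchor of the kinase CSK, at -0.69 ± 0.09 (edgeR adjusted p = 2.7e-06).

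Of the 9 co-receptors and co-stimulators, 4 were higher and 4 lower in the Foxp3 gate. Cd27, a receptor of the TNF family, was 149 ± 12.3 CPM against 32.5 ± 5.12 CPM (log2 2.22 ± 0.12, edgeR adjusted p = 1.1e-13). The adhesion receptor Cd2 was at 0.96 ± 0.07 (edgeR adjusted p = 2.0e-11), and Cd226, an activating receptor, at -0.98 ± 0.07 (edgeR adjusted p = 8.5e-11). Among 12 factors of the CD4 and CD8 lineages 3 were higher, led by Gata3 (log2 1.81 ± 0.12, edgeR adjusted p = 1.4e-11), and 4 lower, led by Tcf7 (-2.06 ± 0.11, edgeR adjusted p = 3.1e-13). Of the 8 receptor chain genes, 3 were lower and none higher, a share near the 30.4% of all genes. These were the γ chain genes Tcrg-C4, Tcrg-C2 and Tcrg-C1. The near-identical sequences of Tcrg-C1 and Tcrg-C2 make the split of counts between those genes uncertain. Tcrg-C4, at -2.68 ± 0.20 (edgeR adjusted p = 1.0e-10), had the smallest p of the 3.

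**Figure D5:**
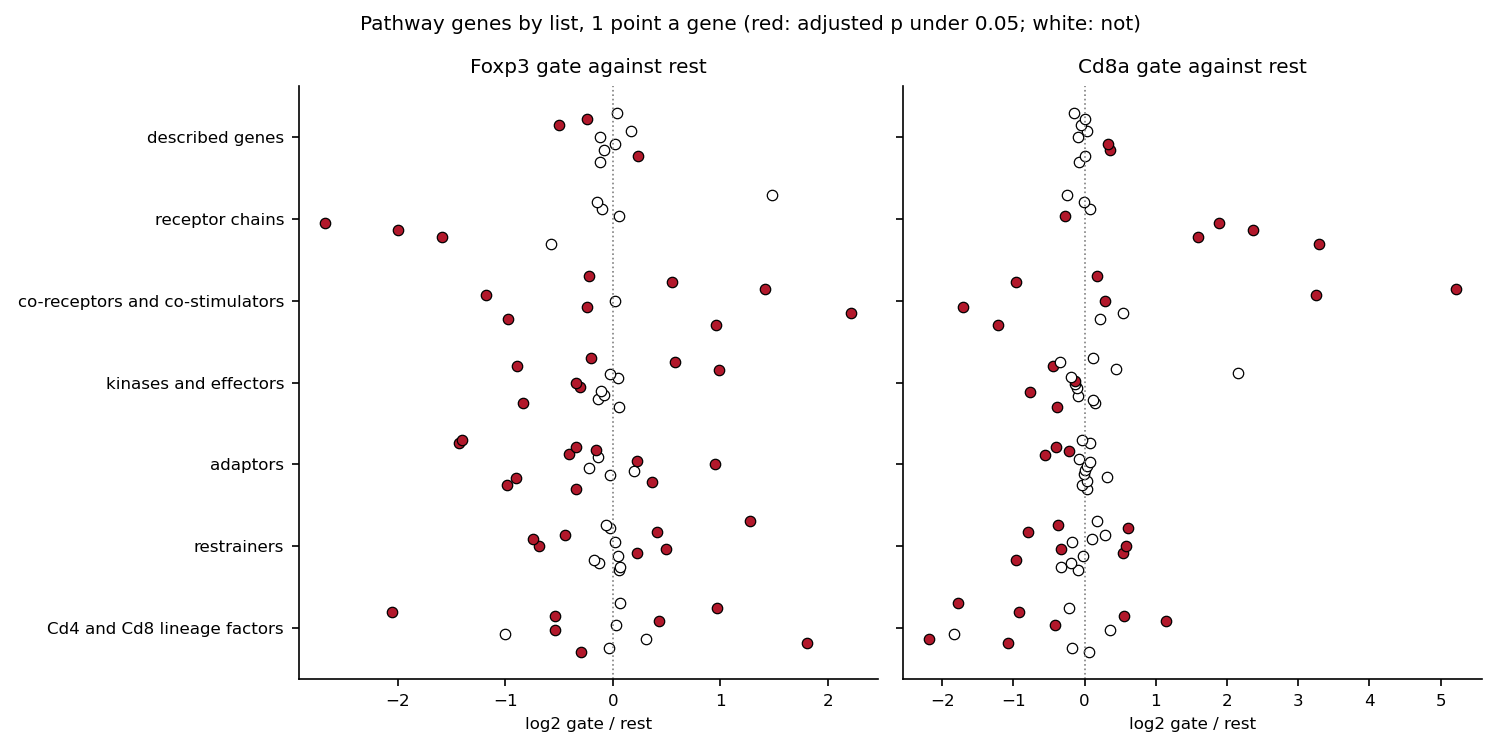
Log2 difference from rest (x axis, edgeR) of the 9 described genes and of the 6 pathway lists in the Foxp3 gate (left) and the Cd8a gate (right). Each point is 1 gene, red where the adjusted p was under 0.05, and Syk on the left and Nck2 on the right, at 0 CPM in the gate, are left out. The 9 described genes stay within -0.50 and 0.35, and genes of the other lists spread further, such as Cd27 at 2.22 and Cd7 at 3.25.

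In the Cd8a gate against rest, where 13.0% of all genes passed (5.96% higher, 7.07% lower), 5 of the 8 receptor chain genes passed, 4 higher and 1 lower, the latter being Trac (log2 -0.28 ± 0.08, edgeR adjusted p = 0.0133), named outside the rule after its value was seen. Tcrg-C2 was 214 ± 42.2 CPM against 40.6 ± 11.1 CPM (log2 2.37 ± 0.17, edgeR adjusted p = 3.9e-10). Fcer1g, whose product can take the place of the zeta chain in the complex, was 121, 211, 83.1 and 9.81 CPM in libraries 1 to 4 of the gate and 5.61 to 10.1 CPM in rest. The first 3 libraries were higher than rest and library 4, with 307 of the 586 cells, was not. The log2 difference was 3.29 ± 0.55 (edgeR adjusted p = 1.1e-04) with 4.13 without library 4 and 2.59 without library 2. Cd247 did not differ in that gate (log2 -0.08 ± 0.10, edgeR adjusted p = 0.729).

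Of the co-receptors and co-stimulators 4 were higher and 3 lower in the Cd8a gate. Cd7, a surface receptor of T and natural killer cells, was 1788, 2629, 1199 and 1244 CPM against 130 to 228 CPM in rest (log2 3.25 ± 0.18, edgeR adjusted p = 4.0e-12). Cd28, the main co-stimulator, was 115 ± 19.5 CPM against 359 ± 16.2 CPM (log2 -1.71 ± 0.10, edgeR adjusted p = 8.0e-12). Cd8b1, the β chain of CD8, had a log2 difference of 5.21 ± 0.32 (edgeR adjusted p = 1.3e-11), or 4.43 without library 2. Of the kinases and effectors 4 of 14 were called lower and none higher, and of the adaptors 4 of 15 and none, Nck2 among them with no UMI in the gate. The absence of higher calls is read against the 5.96% of all genes called higher, and nothing is drawn from it. The others included Malt1 (log2 -0.77 ± 0.11, edgeR adjusted p = 1.8e-05, or 0.073 without Gzma-rich cells) and Sit1 (-0.56 ± 0.10, edgeR adjusted p = 3.7e-04, or 0.066 in cells that met 1 gate only). Of the lineage factors, Zbtb7b, which holds the CD4 fate, was 6.88 ± 3.14 CPM against 24.8 ± 4.98 CPM (log2 -1.78 ± 0.24, edgeR adjusted p = 7.2e-06). Runx2 was higher, at 1.15 ± 0.12 (edgeR adjusted p = 1.2e-07), and Lef1 lower, at -2.18 ± 0.29 (edgeR adjusted p = 6.9e-06).

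In the Il17a gate against rest, 1 of 14 kinases and effectors was higher and 5 lower, and 5 of 15 adaptors were lower with none higher, where 13.0% of all genes were higher and 10.0% lower. Prkcq, the protein kinase C of the T cell synapse, was 52.1 ± 14.3 CPM against 78.9 ± 2.52 CPM (log2 -0.64 ± 0.10, edgeR adjusted p = 5.8e-05). Of the 15 restrainers, 2 were higher and 4 lower, and Sla of that list, whose product lowers receptor levels, was 513 ± 59.6 CPM against 317 ± 40.2 CPM (log2 0.72 ± 0.07, edgeR adjusted p = 2.8e-08). The Gzma gate had 2 of the 14 kinases and effectors lower, near the 12.0% of all genes called there, Malt1 (log2 -0.52 ± 0.08, edgeR adjusted p = 1.0e-04) and Txk (-0.44 ± 0.10, edgeR adjusted p = 0.0039, or 0.055 without library 2). Pag1 was higher there, at 113 ± 11.2 CPM against 57.7 ± 2.05 CPM (log2 0.95 ± 0.08, edgeR adjusted p = 1.0e-08), and in the Ifng gate, at 93.1 ± 3.91 CPM (0.67 ± 0.07, edgeR adjusted p = 2.5e-07). In the Ifng gate 1 adaptor and 1 kinase or effector were higher and 1 of each was lower, where 7.95% of all genes were called.

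Patterns over the gates were compared on log2 CPM of 25 sums of a gate in a library, after the mean of each library was taken away. The sums share libraries and differ in depth, and the coefficients are descriptions. Among the 9 genes, Lck and Lat (r = 0.80), Cd3e and Cd3g (0.76) and Zap70 and Cd5 (0.67) were most alike. Cd3d was not like Cd3e (-0.16) or Cd3g (-0.05), and its coefficient with Lat was -0.46. Of 5598 other genes, Inpp1 (0.95), Btg2 (0.92) and Tpst2 (0.92) were nearest to Lat, and Nsmaf (0.93), Epsti1 (0.93) and Tpst2 (0.92) to Lck. Litaf (0.94), Cd7 (0.93) and Dapk2 (0.92) were nearest to Cd3e, and Fam174a, Rnf149 and Cst7 (0.84 each) to Cd3g. The nearest genes were Arl6ip5 (0.87) for Cd3d, Nfatc2 (0.74) for Cd247, Ddx5 (0.84) for Cd4, Srrm1 (0.85) for Zap70 and Tfam (0.86) for Cd5.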

How the data were processed

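The authors deposited 1 filtered matrix of UMI counts per library, whole numbers per gene and barcode, made with Cell Ranger 3.0.2 on mm10 per the submitters' processing notes. Further settings are not given in the sources used here. Of 22904 barcodes, 22534 held at least 500 genes and 1000 UMIs with at most 10% mitochondrial UMIs. Scrublet in scanpy 1.11.5, at 0.8% doublets per 1000 barcodes, removed 1033, which left 21501 cells (5149 to 5626 per library). Counts were summed per gate and library where at least 20 cells were present. They were fitted in edgeR 4.0.16 (quasi-likelihood, TMM scaling, filterByExpr, library as a block because the gates of 1 library are cells of 1 suspension). The fit had 25 sums and 15 residual degrees of freedom, and p-values were adjusted by Benjamini-Hochberg over 10646 genes, with calls at 0.05. The Il5 or Il13 gate was designed as a comparison, but it entered with library 4 alone and received no test. Its single sum also made filterByExpr lenient.

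The 9 genes, the pathway lists and the marker lists were chosen with earlier results of these data known. All 9 genes are described. Counts are given above for part of the lists against rest and for none against the Ifng gate. Up to 3 genes per list and comparison with the smallest adjusted p are named there. Among the counts left out were 10 of 14 kinases and effectors called in Il17a against Ifng (2 higher, 8 lower). Of all genes 23.1% were called there. In Foxp3 against Ifng it was 11 of 15 adaptors (2 higher, 9 lower), where 29.6% were. For Ifng against rest it was 5 of 12 lineage factors (1 higher, 4 lower), where 7.95% were. For likeness of pattern, the 3 genes with the highest Pearson r were taken among genes with a mean of at least 20 CPM (prior count 2). Shares have exact Clopper-Pearson and CPM exact Poisson 95% intervals, which cover counting error only. Depth per library was 23918884 to 28783972 UMIs. Alternatives covered scaling, DESeq2 1.42.0, low-count filter, block, each library, doublets, mitochondrial filter, thinning, overlapping gates, receptor-positive cells, other cell types, reference and samples in the fit. The fits without cells holding at least 10 Gzma UMIs, on Gzma-rich Cd8a cells, and without the Il5 or Il13 gate were chosen after seeing the data. The fitting code was tested on simulated data. The summed level of the natural killer or innate lymphoid list is not reported here.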

Additional observations from a re-analysis of the deposited data

Results flagged for a closer look

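Of 115 groups of 4 libraries checked, 3 had 1 library far from the others, where chance marks about 1 in 20. Cd5 in the Foxp3 gate was 319 CPM in library 4 and 413 to 420 CPM in the others. The share of Foxp3 gate cells with a Cd5 UMI at 2000 UMIs was 45.5% in library 4 and 51.7% to 52.4% in the others, the same cells measured another way. The Cd8a gate held 5.96% of the cells of library 4 and 1.65% to 1.78% of those of the others.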

How the results depend on the processing

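Of 1341 refitted values of the 9 genes, 1217 kept direction and side of the threshold, 57 lost and 62 gained a call and 5 reversed. For the other pathway genes it was 2070 of 2241, with 162 lost and 9 reversed. The cause was not tested for any of these, and the small Il17a and Cd8a gates limit what depth can show. Counts of genes called of all tested moved as follows. Thinning to 2000 UMIs gave 1846 for Foxp3 against rest (main 3239), 633 for Il17a (2454), 727 for Cd8a (1388), 816 for Il17a against Ifng (2462), 589 for Cd8a against Ifng (1083), 1861 for Foxp3 against Ifng (3147) and 2616 for any difference among the gates (4977). Cells that met 1 gate only gave 1332 for Il17a, 530 for Cd8a and 535 for Ifng against rest (846), and 1617 and 567 for Il17a and Cd8a against Ifng. Without Gzma-rich cells, Cd8a gave 534 against rest and 589 against Ifng. With only the 2 gates compared, Ifng against rest gave 1790 and Cd8a against Ifng 629. With no replicate block, Ifng against rest gave 261 and Gzma against rest 729 (main 1273), and the calls of Lck, Zap70 and Cd5 in the Il17a gate (edgeR adjusted p = 0.096, 0.091 and 0.056), of Zap70 in the Ifng and Gzma gates (0.20 and 0.071) and of Cd5 in Il17a against Ifng (0.098) were lost. The pairing through the block changed no other call of the 9 genes. With library size alone, Il17a against Ifng split into 1134 higher and 1428 lower, against 1388 and 1074. Leaving out 1 library gave 2404 to 2782 for Foxp3, 1558 to 2063 for Il17a, 910 to 1141 for Cd8a, 518 to 721 for Ifng and 851 to 1093 for Gzma against rest. It gave 1626 to 2077, 701 to 846 and 2447 to 2752 for Il17a, Cd8a and Foxp3 against Ifng, and 3757 to 4115 for any difference. Against the mean of the other 6 gates, log2 values reversed to -0.14 for Cd3g in the Foxp3 gate, to 0.01 for Lck, 0.10 for Dgka, -0.15 for Runx2 and 0.59 for Tcf7 in the Il17a gate, to 0.34 for Dgka, 0.40 for Tcf7 and 0.30 for Txk in the Ifng gate, and to 0.11 for Sit1 and 0.15 for Txk in the Gzma gate. In cells that met 1 gate only, the Cd8a gate reversed to -0.05 for Cd3g and -0.40 for Lck against rest, and to -0.05 for Cd3g and -0.09 for Runx3 against Ifng. The Il5 or Il13 gate, with 1 library in the fit, was not refitted as a comparison.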
